A study of Bos taurus with 6 samples.

Results

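MGAT5B and GLT8D2 are glycosyltransferases, the enzymes of the Golgi and endoplasmic reticulum that add sugars to proteins and lipids. Their mRNAs were followed in primary myoblasts, the precursors of muscle fibers, from the longissimus dorsi of fetal beef cattle. One group of 3 cultures received 20 μM resveratrol (RSV), a plant polyphenol, dissolved in DMSO. The control group of 3 cultures received the solvent DMSO alone, and all cultures were kept in differentiation medium for 4 days. No genetic change was made in either group, and the study's methods describe the cultures of each group as independent experiments without giving the number of animals. The genes were chosen by name: MGAT5B, GLT8D2 and any other gene whose name starts with MGAT or GLT8D in the gene sheets of the study. The copy of these sheets used here held part of their rows and paired 1863 identifiers of the table with names, so other genes of both families may be among the mRNAs without a name. This gave 4 of the 26332 mRNAs listed: MGAT5B (ENSBTAG00000005104), MGAT2 (ENSBTAG00000033891), GLT8D2 (ENSBTAG00000000925) and GLT8D1 (ENSBTAG00000014550).

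N-glycans are built on a lipid, moved to asparagines of new proteins and trimmed, and MGAT enzymes then add N-acetylglucosamine (GlcNAc) branches to them in the Golgi. MGAT2 starts the branch on the other arm of the core after MGAT1 and is needed for complex N-glycans. MGAT5B, a relative of MGAT5, adds a GlcNAc branch to N-glycans and to O-mannose glycans and is known mainly from the nervous system. GLT8D1 and GLT8D2 belong to glycosyltransferase family GT8, named for a shared catalytic domain, and little is known of what GLT8D2 modifies. In skeletal muscle, O-mannose glycans on alpha-dystroglycan bind the fiber to its basement membrane, and their loss causes muscular dystrophies.

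The deposited table gives each mRNA as 1 mean per group, in reads divided by a size factor that scales for depth. Whole reads of single libraries were recovered from these means for 20083 of the 20459 mRNAs with reads, among them all 4 genes, and summed to between 10567109 and 12636179 per library. The libraries carry no replicate number, so they are called a, b and c in order of falling size factor within each group, and the same letter in both groups links nothing. RSV library c, with a size factor of 1.05, stood apart. Its squared Pearson correlation with the DMSO libraries on log10(normalized reads + 1) lay between 0.939 and 0.941, against 0.960 to 0.964 for RSV libraries a and b. The gene names come from sheets of differentially expressed (DE) mRNAs, so every gene named here was chosen by the contrast of RSV with DMSO. Its values in that contrast are therefore a description, given without a test. In bulk RNA, fewer cells of a type and less RNA per cell cannot be told apart.

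Of the labelled cell type, 4 of 15 markers of myoblasts and myotubes had a name, and the reads of 3 were recovered. MYMK, which drives myoblast fusion, had 1630 to 1998 normalized reads in RSV and 1084 to 1114 in DMSO. The slow troponin TNNT1 had 3587 to 3982 in RSV and 2237 to 2654 in DMSO, and the myosin light chain MYL1 had 399 to 497 in RSV and 595 to 642 in DMSO. These 3 markers summed to 5972 to 6109 normalized reads in RSV and to 3916 to 4395 in DMSO, and none was at 0. Of 6 fibroblast markers 4 had a name, and the 1 with recovered reads, PDGFRA, had 6697 to 7277 normalized reads in RSV and 9068 to 9381 in DMSO. None of the adipocyte, endothelial or macrophage markers had a name. The part of these shifts in the values of the glycosyltransferase genes was not tested.

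MGAT5B was about 10-fold higher under RSV. Its normalized reads were 661, 646 and 706 in RSV libraries a, b and c and 64.3, 70.9 and 60.9 in DMSO libraries a, b and c. The lowest RSV library lay far above the highest DMSO library, and each group was narrow. The means were 671 ± 31.1 in RSV and 65.4 ± 5.05 in DMSO (SD, n = 3), a ratio of 10.3. The fit by limma voom, a linear model on log2 reads weighted by their precision, gave a log2 fold change of 3.35 with a standard error of 0.13. The whole reads behind the DMSO values were 62, 68 and 54, and their 95% Poisson intervals, which cover counting error only, ran from 45.8 to 89.8 normalized reads over the 3 libraries. MGAT5B was thus detected in each DMSO library, at a low count.

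GLT8D2 was about 5-fold lower under RSV, and the RSV libraries were unequal. Its normalized reads were 137, 132 and 59.8 in RSV libraries a, b and c and 572, 576 and 567 in DMSO libraries a, b and c. The groups did not overlap, the DMSO libraries were almost equal, and RSV library c was well under the other RSV libraries. The means were 110 ± 43.2 in RSV and 572 ± 4.40 in DMSO (SD, n = 3), so DMSO was 5.22 times RSV. The log2 fold change was −2.47 with a standard error of 0.23. Without RSV library c it was −2.09, with a standard error of 0.11. The 63 whole reads of library c have a 95% Poisson interval of 45.9 to 76.5 normalized reads, which lies under the intervals of library a (116 to 161) and library b (111 to 155). The intervals of the DMSO libraries ran from 519 to 626 normalized reads, far wider than the SD of 4.40 between these libraries. The DMSO values all lay within each of these intervals, so differences between the DMSO libraries cannot be told from counting error. All these intervals leave out the spread between cultures.

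MGAT2 was higher under RSV by a smaller step. It had 1507, 1510 and 1868 normalized reads in RSV libraries a, b and c and 1016, 992 and 1022 in DMSO libraries a, b and c. RSV libraries a and b were nearly equal, library c was higher, and all 3 lay above DMSO. The ratio of the means was 1.61, and the log2 fold change was 0.68 with a standard error of 0.09, or 0.58 without RSV library c. GLT8D1 was the least changed of the 4 genes. It had 719, 781 and 671 normalized reads in RSV libraries a, b and c and 994, 981 and 961 in DMSO libraries a, b and c. All RSV libraries lay below all DMSO libraries, with library c the lowest. The mean in DMSO was 1.35 times that in RSV, and the log2 fold change was −0.44 with a standard error of 0.07, or −0.39 without RSV library c.

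**Figure D1:**
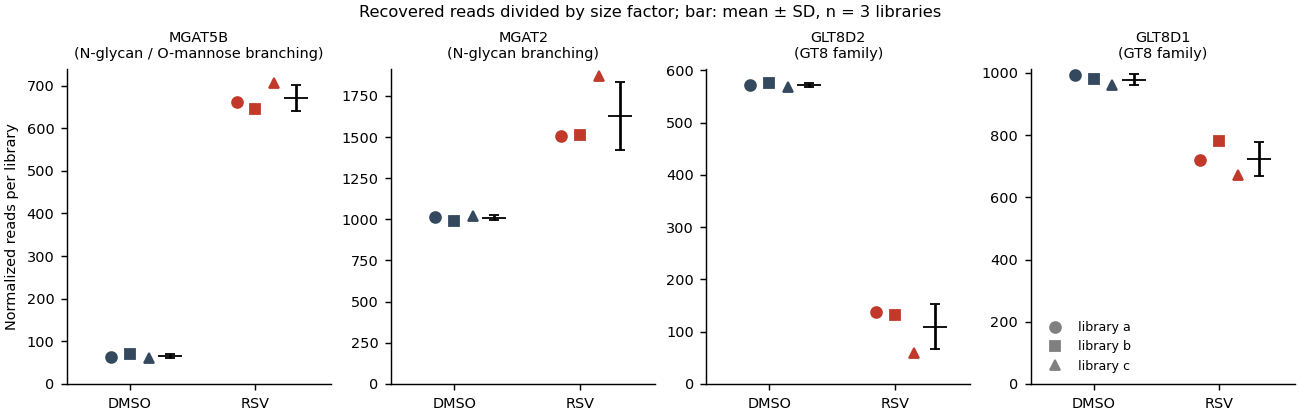
Normalized reads of MGAT5B, MGAT2, GLT8D2 and GLT8D1 in each recovered library of the DMSO group (dark) and the RSV group (red), with a separate linear axis from 0 for each gene. Circles, squares and triangles are libraries a, b and c of a group, the black marks are the mean ± SD of 3 libraries, and RSV library c lies farthest from DMSO for all 4 genes.

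Of the genes with a name, MGAT5B and MGAT2 were thus higher and GLT8D1 and GLT8D2 lower under RSV. Over the 14653 mRNAs whose mean reached 10 normalized reads, limma voom called 16.9% higher and 17.2% lower at a Benjamini-Hochberg adjusted p under 0.05. All 4 genes were among these calls, which their choice from DE mRNAs fixed. RSV and DMSO did not overlap for 53.2% of the mRNAs tested, with RSV above DMSO for 27.0% and below it for 26.2%, so the lack of overlap in the 4 genes is common in these data. By log2 fold change, MGAT5B had rank 26 from the highest and GLT8D2 rank 30 from the lowest. MGAT2 had rank 1316 from the highest and GLT8D1 rank 1914 from the lowest. Most mRNAs with larger changes than MGAT5B and GLT8D2 had fewer reads. Among the 7542 tested mRNAs with at least as many reads as MGAT5B, the 1 with a higher log2 fold change was PLTP, the phospholipid transfer protein. Among the 7780 with at least as many reads as GLT8D2, the 1 with a lower log2 fold change was COL6A6, a collagen VI chain. mRNAs whose reads were not recovered, which include the most abundant ones, have no rank here.

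**Figure D2:**
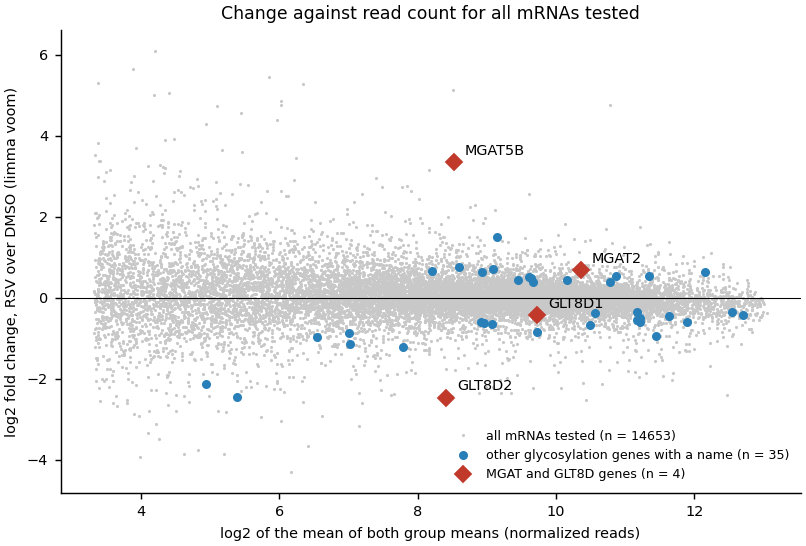
Log2 fold change of RSV over DMSO from limma voom (vertical axis) against the log2 of the mean of both group means in normalized reads (horizontal axis) for 14653 mRNAs in grey, 35 other named glycosylation genes in blue and the 4 MGAT and GLT8D genes in red. MGAT5B at 3.35 and GLT8D2 at −2.47 lie at the upper and lower edge of the mRNAs with like read counts, while MGAT2 and GLT8D1 lie near the main cloud.

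The spread between the RSV libraries differed among the 4 genes. The SD of log2(normalized reads + 1) over the RSV libraries was 0.67 for GLT8D2, larger than that of 95.2% of the mRNAs tested, and 0.07 for MGAT5B, larger than that of 19.7%. In DMSO the order was the opposite, with an SD of 0.01 for GLT8D2 and 0.11 for MGAT5B. The median SD over all mRNAs tested was 0.15 in RSV and 0.09 in DMSO. The 95% Poisson intervals of the DMSO libraries ran from 519 to 626 normalized reads for GLT8D2 and from 45.8 to 89.8 for MGAT5B. All DMSO values of each gene lay within each of its DMSO intervals, so the order in DMSO cannot be told from counting error. RSV library c was farthest from the DMSO mean, in the direction of change, for all 4 genes. The same was true of 60.0% of the 14653 mRNAs tested and of 69.6% of the 4993 called, with 65.8% of those called higher and 73.3% of those called lower, so this position of library c is common in the data. On the log2 scale, library c stood −3.26 from the DMSO mean for GLT8D2, against −2.06 and −2.12 for libraries a and b. For MGAT5B it stood 3.43 from the DMSO mean, against 3.34 and 3.30.

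Ratios of reads within 1 library need no size factor. For each read of GLT8D2 there were 4.83, 4.90 and 11.8 reads of MGAT5B in RSV libraries a, b and c, and 0.113, 0.123 and 0.107 in DMSO libraries a, b and c. The ratio of these genes thus changed by 5.84 on the log2 scale between the groups, with an SD between libraries of 0.74 in RSV and 0.10 in DMSO. For each read of GLT8D1 there were 2.10, 1.93 and 2.79 reads of MGAT2 in RSV and 1.02, 1.01 and 1.06 in DMSO. Transcript lengths were not used here, so a ratio says how the pair shifted between groups and not which mRNA was more abundant.

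The mRNAs most like MGAT5B and GLT8D2 were sought by the root mean square distance between profiles over the 6 libraries, each profile being log2(normalized reads + 1) minus its mean over DMSO. The nearest named genes to MGAT5B were SUSD4, a complement inhibitor, at a distance of 0.24, ALS2CL at 0.33 and INPP5D, an inositol phosphatase, at 0.35. SUSD4 had 552, 533 and 466 normalized reads in RSV and 70.6, 52.1 and 51.9 in DMSO, so its RSV library c was the lowest where that of MGAT5B was the highest. ALS2CL and INPP5D had at most 7.90 and 5.21 normalized reads in a DMSO library, so their profiles rest on few reads. Nearest to GLT8D2 were the potassium channel gene KCNK12 at 0.14, COL6A6 at 0.14 and the growth factor gene named IGF-I in the sheet at 0.15. KCNK12 had 184, 188 and 103 normalized reads in RSV and 801, 830 and 738 in DMSO, and COL6A6 had 504, 489 and 271 in RSV and 2651, 2123 and 2267 in DMSO. In KCNK12 and COL6A6, as in GLT8D2, RSV libraries a and b were alike and library c was much lower. Both genes were chosen by their closeness to GLT8D2 over these same libraries, so this likeness follows from the choice. IGF-I had 11.9, 12.0 and 5.69 normalized reads in RSV and 46.3 to 61.2 in DMSO, but its RSV values rest on 13, 13 and 6 whole reads. With Pearson's correlation in place of the distance the nearest named genes were SGCB, PLEKHN1 and PLTP for MGAT5B and LRRN3, MAP2K6 and FBLN5 for GLT8D2, so 0 of 3 names were shared for either gene. By the distance, 1 mRNA without a name was nearer to MGAT5B than SUSD4, and 2 were nearer to GLT8D2 than KCNK12. The points share the 6 libraries and 2 groups, and 114 mRNAs had a correlation of at least 0.99 with MGAT5B and 196 with GLT8D2.

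**Figure D3:**
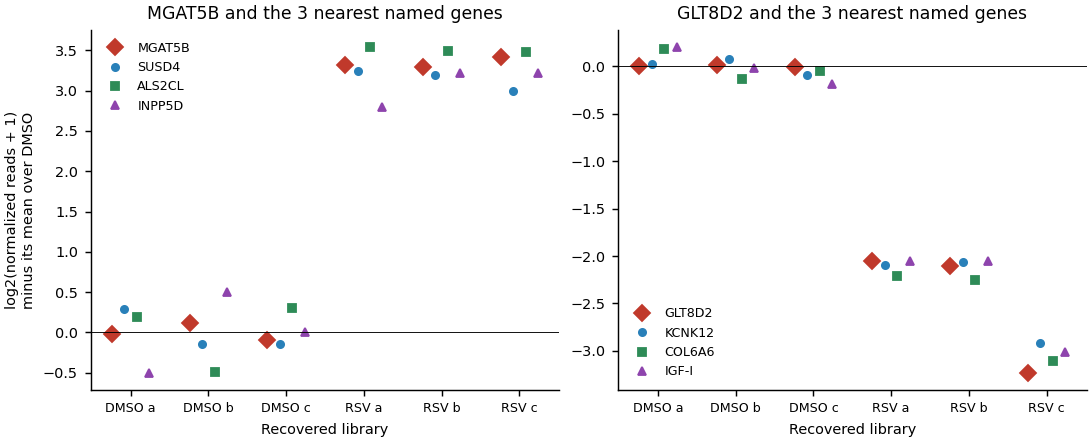
Log2(normalized reads + 1) minus its mean over the DMSO libraries (vertical axis) in each of the 6 recovered libraries (horizontal axis) for MGAT5B with SUSD4, ALS2CL and INPP5D (left) and for GLT8D2 with KCNK12, COL6A6 and IGF-I (right). The MGAT5B values are nearly level over the RSV libraries, while GLT8D2 and its nearest genes are lower in RSV library c than in libraries a and b. The nearest genes were chosen by their closeness over these same libraries.

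The other genes of protein and lipid glycosylation were taken from lists of 245 genes, of which 40 (16.3%) had a name and 39 had recovered reads. With so few named, the lists describe only these genes. All 39 were called, 16 higher and 23 lower. The same holds for all 1734 named mRNAs tested, against 34.1% of all mRNAs tested, so only the direction varies, and 45.4% of the named mRNAs were higher. The median log2 fold change of the 39 genes was −0.44, beside −0.39 over the 1734 named mRNAs and 0.01 over all mRNAs tested, most of which were not called. Between 15 and 16 genes were called higher and between 21 and 23 lower in the 6 fits that each left out 1 library.

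In the GT8-related list, GLT8D1 and GLT8D2 stood with GXYLT2 and XXYLT1, which build the xylose extension on O-glucose of Notch and similar proteins. GXYLT2, which adds the first xylose, had 526 to 720 normalized reads in RSV and 1026 to 1145 in DMSO (log2 fold change −0.86, standard error 0.11). XXYLT1, which extends it, had 346 to 383 in RSV and 191 to 253 in DMSO (log2 fold change 0.65, standard error 0.12). The 4 named genes of the list therefore did not share a direction.

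Among N-glycan branching and trimming genes, 3 of the 4 named were higher and 1 lower. Beside MGAT5B and MGAT2, the Golgi mannosidase MAN2A2, which trims the core after MGAT1 and before MGAT2 act, had 1797 to 2181 normalized reads in RSV and 1479 to 1594 in DMSO (log2 fold change 0.40). MANEA, an endomannosidase of the Golgi that removes glucose with its mannose, had 343 to 409 in RSV and 566 to 596 in DMSO (log2 fold change −0.59). The 3 named genes of precursor building and trimming in the endoplasmic reticulum were all higher. ALG10, which adds the last glucose to the lipid-linked precursor, had a log2 fold change of 0.71. ALG12, a mannosyltransferase of the same precursor, had 0.44, and MAN1B1, a mannosidase of glycoprotein quality control, had 0.48. MGAT5B was the gene with the highest value of all 39, and the next was HS3ST2 at 1.49.

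Of mucin-type O-glycans and O-mannose, 6 genes are described, which are a small part of these pathways. The 4 GALNT enzymes described here, which attach the first sugar of mucin-type O-glycans, were lower, which does not give the direction of the family. GALNT15 had 6.64 to 21.2 normalized reads in RSV and 55.2 to 84.6 in DMSO, a log2 fold change of −2.44 (standard error 0.39) close to that of GLT8D2 but on fewer reads. GALNT5 had 5.69 to 17.5 in RSV and 41.7 to 56.0 in DMSO, a log2 fold change of −2.13, and GALNT16 and GALNT1 had −0.94 and −0.51. Of the O-mannose genes, B3GALNT2, which helps build the sugar chain of alpha-dystroglycan, had a log2 fold change of −0.36. TMTC4, an O-mannosyltransferase of cadherins, had −0.65.

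The genes that extend or cap glycans were split, with 3 of 7 higher and 4 lower. The sialyltransferases ST3GAL6 and ST6GALNAC4 were higher at 0.54 and 0.51, and ST6GAL2 and ST3GAL4 were lower at −1.15 and −0.62. B3GALT4, of ganglioside synthesis, was higher at 0.75, while B3GALNT1, of globoside synthesis, was lower at −1.22 and the fucosyltransferase FUT1 at −0.97. Glycosaminoglycan genes were split as well, with 4 of 7 higher. HS3ST2, a heparan sulfate sulfotransferase, had 786 to 859 normalized reads in RSV and 278 to 324 in DMSO. The sulfatases SULF2 and SULF1, which remove sulfate from heparan sulfate outside the cell, lay on opposite sides, at 0.63 and −0.56. HS6ST1 and CHST12, a heparan and a chondroitin sulfotransferase, had 0.53 and 0.63, and DSEL and EXT1 had −0.60 and −0.37.

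The 3 genes with recovered reads for other O-linked and collagen sugars were lower: OGT, the transferase of nuclear and cytoplasmic O-GlcNAc, at −0.46, PLOD1, a lysyl hydroxylase, at −0.44 and COLGALT1, which galactosylates collagen, at −0.36. PLOD2 had a name, but its reads were not recovered. Among genes of sugar donor supply, 2 of 5 were higher. UGP2, which makes UDP-glucose, and UGDH, which turns it into UDP-glucuronic acid, were lower at −0.60 and −0.68, and so was the nucleotide sugar transporter SLC35D2 at −0.87. GMPPB, which makes GDP-mannose, and SLC35A1, the CMP-sialic acid transporter, were higher at 0.40 and 0.44. Apart from GALNT5, GALNT15, B3GALNT1, ST6GAL2 and HS3ST2, the absolute log2 fold changes of the listed genes other than MGAT5B and GLT8D2 were under 1.

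**Figure D4:**
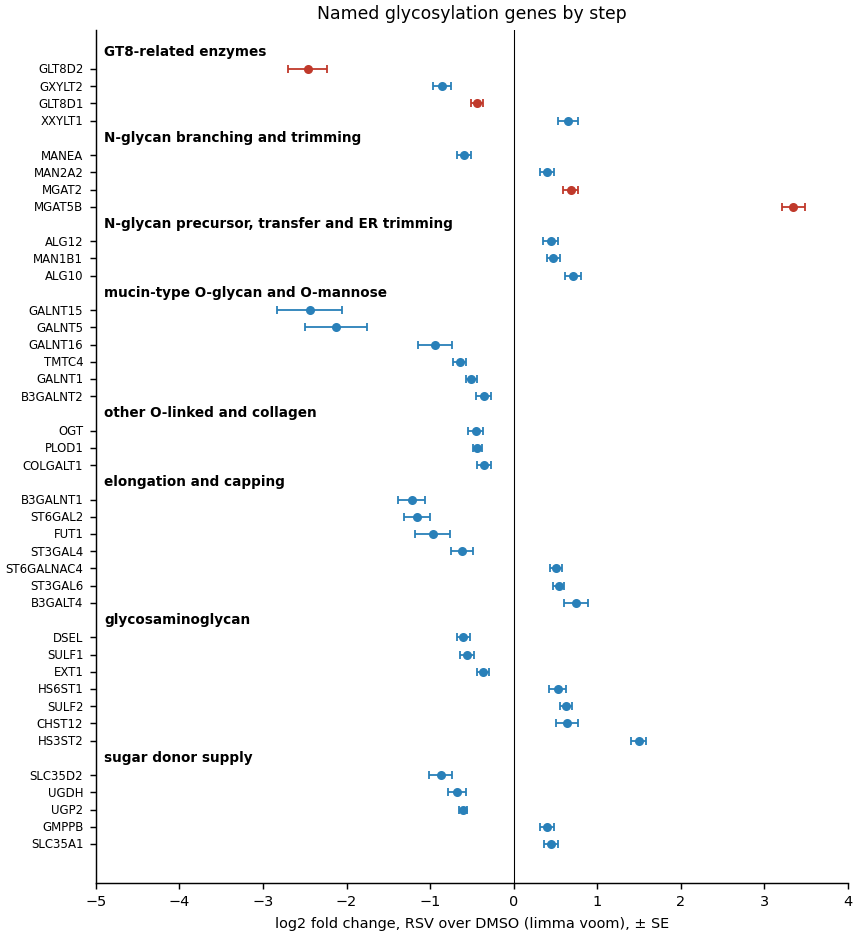
Log2 fold change of RSV over DMSO from limma voom with its standard error (horizontal axis) for 39 named glycosylation genes with recovered reads, grouped by step, with the 4 MGAT and GLT8D genes in red. MGAT5B at 3.35 stands alone on the right, GLT8D2 at −2.47 lies beside GALNT15 at −2.44 on the left, and most other genes lie within 1 of 0.

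The protein-coding neighbours of the 4 genes were taken from the RefSeq gene order of the ARS-UCD2.0 assembly, which is not the build of the deposited data and was used for gene order alone. Of the 10 nearest genes of each, 1 had a name for MGAT5B, 1 for MGAT2, 3 for GLT8D2 and 1 for GLT8D1. SRSF2, a splicing factor near MGAT5B, had 1714 to 2252 normalized reads in RSV and 2552 to 2784 in DMSO (log2 fold change −0.42), the opposite direction to MGAT5B. RPL36AL, next to MGAT2, was also opposite, with 1622 to 1978 in RSV and 2388 to 2516 in DMSO (log2 fold change −0.44). NT5DC3, near GLT8D2, was higher, with 216 to 292 in RSV and 143 to 159 in DMSO (log2 fold change 0.75), while the reads of HSP90B1 and TXNRD1 were not recovered. GNL3, a nucleolar protein gene next to GLT8D1, was lower like it, with 545 to 693 in RSV and 753 to 879 in DMSO (log2 fold change −0.44 for both). The span of GLT8D1 overlaps that of SPCS1 in RefSeq, and where counting does not use strand, reads of overlapping genes cannot be told apart.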

How the data were processed

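RNA of 3 RSV and 3 DMSO cultures was sequenced, and groups follow the treatment labels. The authors compared groups with DESeq and deposited, per mRNA, a mean per group of read counts divided by size factors. The mRNA aligner, counter and annotation are not given in the sources used here, and neither is strand. The deposited log2 fold changes, p-values and adjusted p-values are the authors' comparison and were not used, except that digits of the log2 fold change placed the decimal point.

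In the mRNA block, most values from 1 upwards lack a decimal point. Size factors were read from the lowest means, and each mean was written as a sum of whole reads over size factors, keeping a single combination with fewer than 0.02 chance matches and means under 10000. Reads that are all multiples of 10 also fit when divided by 10, which was corrected for 22 mRNAs, and 18404 of 18426 matched at first. As the table holds means, the design's fit was run on these reads: limma voom (limma 3.58.1, R 4.3.3), 3 against 3, a minimum mean of 10 normalized reads and Benjamini-Hochberg adjustment. Other steps used Python 3.11.15, numpy 2.4.6, pandas 2.3.3, numba 0.67.0 and matplotlib 3.10.9. Scripts were tested on simulated data. With 3 libraries against 3, an exact permutation test cannot go below 0.10.

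Genes named are the MGAT and GLT8D genes, the 3 nearest named mRNAs to MGAT5B and to GLT8D2, and named genes of the glycosylation lists; neighbours, SGCB and other genes nearest by correlation, and the mRNAs exceeding MGAT5B or GLT8D2 were added after values were seen. One gene of the lists is not reported here, and counts leave it out, so a list's counts and median are not those of all its named genes. The members and lists were chosen with earlier results of these data known. Protein and promoter sequences and the miRNA block were not used here.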

Additional observations from a re-analysis of the deposited data

How the results depend on the processing

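The log2 fold changes of MGAT5B, MGAT2, GLT8D2 and GLT8D1 kept their direction under all 12 alternatives: no minimum mean, library totals or upper-quartile scaling, limma trend with a pseudocount of 1 or 0.5, the ratio of the deposited group means, and each library left out in turn. They ranged from 3.30 to 3.41, 0.58 to 0.73, −2.67 to −2.09 and −0.49 to −0.39. RSV and DMSO did not overlap for any of these genes, so leaving out a library could not reverse a direction. Leaving out each library in turn moved the number of mRNAs called higher between 1172 and 3219 and of those called lower between 1328 and 3000. The counts were 2471 and 2522 with all libraries. Without DMSO library a, b or c they were 1233, 1281 and 1172 higher and 1419, 1441 and 1328 lower. Without RSV library a, b or c they were 1744, 2759 and 3219 higher and 1767, 2709 and 3000 lower. All these fits have fewer samples, yet leaving out RSV library b or c gave more calls than the full fit. The reason for these shifts was not tested. With library totals, 59.6% of the calls were higher, against 49.5%, and the median of all mRNAs moved from 0.01 to 0.06. No paired analysis was possible because the table holds group means and the recovered libraries carry no replicate number. Depth limits the low values most: MGAT5B in DMSO rests on 54 to 68 reads and GLT8D2 in RSV library c on 63.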
